A study of Arabidopsis thaliana with 24 samples.

Results

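Seedlings of the nph4-1 mutant treated with the auxin indole-3-acetic acid (IAA) were compared with wild-type Columbia (Col) seedlings given the same treatment. The comparison used 6 of the 24 arrays of the series: 3 arrays of nph4-1 with IAA and 3 of Col with IAA, taken by genotype and treatment as labelled. The nph4-1 line carries a mutation in ARF7, also called NPH4, and was set against the labelled Columbia wild type. Seedlings of all groups grew in shaken liquid medium with 1.5% sucrose for 7 days, in a cycle of 16 h light and 8 h dark, and were then kept at 24 °C for 2 h with 5 µM IAA or with ethanol, its solvent. Other sets of arrays are used below for their values on the same genes. These are nph4-1 against Col with ethanol (the control groups), the nph4-1 arf19-1 double mutant with IAA against arf19-1 with IAA, and arf19-1 with IAA against arf19-1 with ethanol. Both groups of that double mutant comparison carry the arf19-1 mutation in ARF19, a close relative of ARF7. Each group had 3 arrays. Whether these came from separate cultures is not stated in the labels, so the spread between arrays of a group may be technical. The p-values rest on that spread pooled over the 8 groups of all 24 arrays, not on the compared arrays alone. The annotation used names no probe set for either ARF gene, so their levels are not analysed here and the mutant label could not be checked on its own gene.

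ARF7 is an auxin response factor, a transcription factor that binds auxin response elements in promoters and activates the genes beside them. When auxin is scarce, Aux/IAA proteins bind such factors and keep the genes silent; auxin joins Aux/IAA proteins to the TIR1/AFB receptors, the Aux/IAA proteins are degraded, and the response factors are released. In Arabidopsis seedlings ARF7 is known for its part in phototropic bending of the hypocotyl and, together with ARF19, in the start of lateral roots. Many of the genes that auxin switches on first feed back on the hormone: they encode Aux/IAA repressors or GH3 enzymes that conjugate IAA to amino acids.

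The deposited values are log2 signals of 22810 probe sets on a single array design, with a floor at 50 in linear units, which is 5.64 in log2. After 64 control probe sets and 6989 at the floor on all arrays were left out, 15757 probe sets were tested, of which 8616 were paired with 1 gene. Array medians lay between 6.64 and 6.76, and 35.6% to 36.7% of values sat at the floor. The array nph4-1 IAA 1 stood apart from its replicates. Its array weight, an estimate of how closely an array follows its group, was 0.144, against 2.38 and 1.27 for nph4-1 IAA 2 and 3 and 0.429 to 0.947 for the Col IAA arrays, and its signal lay over 2-fold below both of its replicates on 390 probe sets and over 2-fold above both on 18. On 362 of those 390 (92.8%) Col control 3, the other array of low weight (0.185), also lay below both of its replicates, which it did on 29.4% of all tested probe sets. The 3′ minus 5′ signal of the actin control was 2.22, 2.17 and 2.14 on the nph4-1 IAA arrays, against 2.09, 1.82 and 2.16 on the Col IAA arrays, so nph4-1 IAA 1 did not differ from its replicates in this measure of RNA quality by more than the Col IAA arrays did among themselves. The same measure of the GAPDH control was 0.06, -0.02 and -0.1 on the nph4-1 IAA arrays, and 0.02, 0.05 and 0.11 on the Col IAA arrays. By GAPDH, nph4-1 IAA 1 lay further from nph4-1 IAA 3 than any Col IAA arrays lay from each other. Results that nph4-1 IAA 1 changes are given with and without it.

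Markers of root and shoot were present at similar levels in both genotypes. EXPA7 and EXPA18, which encode expansins of root hairs, had a summed linear signal of 318 to 424 in nph4-1 IAA and 350 to 580 in Col IAA, and neither was called. The 7 tested shoot markers, among them RCA (Rubisco activase) and the LHCB4 antenna genes, summed to 29691 to 32754 in nph4-1 IAA and 31522 to 33766 in Col IAA, with 0 of 7 called; without nph4-1 IAA 2, 1 of the 7 was called lower. In whole seedlings, here and for the markers of lateral root primordia below, fewer cells of a type and less RNA per cell cannot be told apart.

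With IAA, 895 of 15757 tested probe sets (5.68%) were lower in nph4-1 than in Col, and 1316 (8.35%) were higher (limma, Benjamini-Hochberg adjusted p below 0.05, 3 arrays each). Large differences lay mostly on the lower side. At least 2-fold differences were found for 207 lower and 137 higher probe sets, at least 4-fold for 46 lower and 6 higher, and at least 8-fold for 5 lower and 0 higher. The median size on the log2 scale was -0.595 among the lower and 0.553 among the higher, while the median over all tested probe sets was 0.0073. The arrays of the groups did not overlap on 848 of the 895 lower and 1246 of the 1316 higher probe sets. Over all tested probe sets, all 3 nph4-1 IAA arrays lay below all Col IAA arrays on 10.0% and above them on 15.1%. Of the lower probe sets 63 were at the floor on all nph4-1 IAA arrays, and of the higher 40 were at the floor on all Col IAA arrays, so their differences are lower bounds.

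Without nph4-1 IAA 1 there were 794 lower (5.04%) and 1084 higher (6.88%) probe sets, which include 692 of the 895 and 900 of the 1316. Each of the 24 arrays was also left out in turn. In every such fit 512 of the 895 lower and 685 of the 1316 higher probe sets kept their call, as did all 52 that differed by at least 4-fold. At the threshold, the last probe set called lower had an adjusted p of 0.0498 and a log2 difference of -0.39, the first not called 0.0502 and -0.57. On the higher side these were 0.0499 and 0.64 inside, and 0.05 and 0.82 outside.

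The largest deficits in nph4-1 included genes of lateral root initiation and of auxin feedback, beside several loci with no role given here. AT5G57760 had log2 signals of 6.04, 6.15 and 5.95 in nph4-1 IAA, against 9.23, 9.20 and 9.89 in Col IAA. The mutant thus reached 9.54% of the Col signal, a difference of -3.39 (SE 0.26, adjusted p 5.6e-09). AT1G62770 had 6.66, 6.56 and 6.86 in nph4-1 IAA, against 9.98, 9.73 and 9.88 in Col IAA, or 11.2% of the Col signal (-3.16, SE 0.11, adjusted p 2.4e-14). For LBD29 the signals were 6.36, 5.81 and 6.41 in nph4-1 IAA, against 9.27, 9.30 and 9.05 in Col IAA. LBD29 encodes an LBD transcription factor that promotes the start of lateral roots, and its mutant signal was 12.4% of that in Col (-3.02, SE 0.11, adjusted p 4.2e-14). IAA29, an Aux/IAA repressor gene, had 6.91, 6.60 and 7.27 in nph4-1 IAA, against 9.73, 9.93 and 10.0 in Col IAA, which is 12.8% (-2.96, SE 0.14, adjusted p 3.1e-12). In each of these genes the lowest Col array was above the highest nph4-1 array by a wide margin, and the spread within a group was small beside it. The naming rule took genes without overlap and with the largest differences, so such gaps follow in part from the choice.

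The other 12 of the 16 named genes with the largest deficits differed by -2.82 to -2.12. They include AT2G39980 (-2.82), AT4G35720 (-2.59), AT3G50340 (-2.56) and AT1G67750 (-2.53), for which no role is given here. AT5G50335 was at the floor on all 3 nph4-1 IAA arrays and at 7.75, 7.97 and 8.23 in Col IAA, so it was at least 5.06-fold lower in the mutant. IAGLU, which encodes a glucosyltransferase that conjugates IAA to glucose, had 7.56, 8.19 and 8.05 in nph4-1 IAA, against 10.19, 10.29 and 10.18 in Col IAA (-2.29, SE 0.20, adjusted p 3.4e-08). The expansin gene EXPA8 had 7.08, 7.09 and 6.88 in nph4-1 IAA, against 9.03, 9.12 and 9.77 in Col IAA (-2.29, SE 0.27, adjusted p 3.4e-06). PR-1-LIKE, a relative of the pathogenesis-related gene PR-1, had 7.59, 6.95 and 7.17 in nph4-1 IAA and 9.5, 9.52 and 9.31 in Col IAA (-2.21). Its near neighbour AT2G19970 had almost the same difference, -2.20. AT5G55050 (-2.15) and AT5G01210 (-2.12) complete the set. All 16 kept their call whichever array was left out, with adjusted p at most 5.1e-05.

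**Figure D1:**
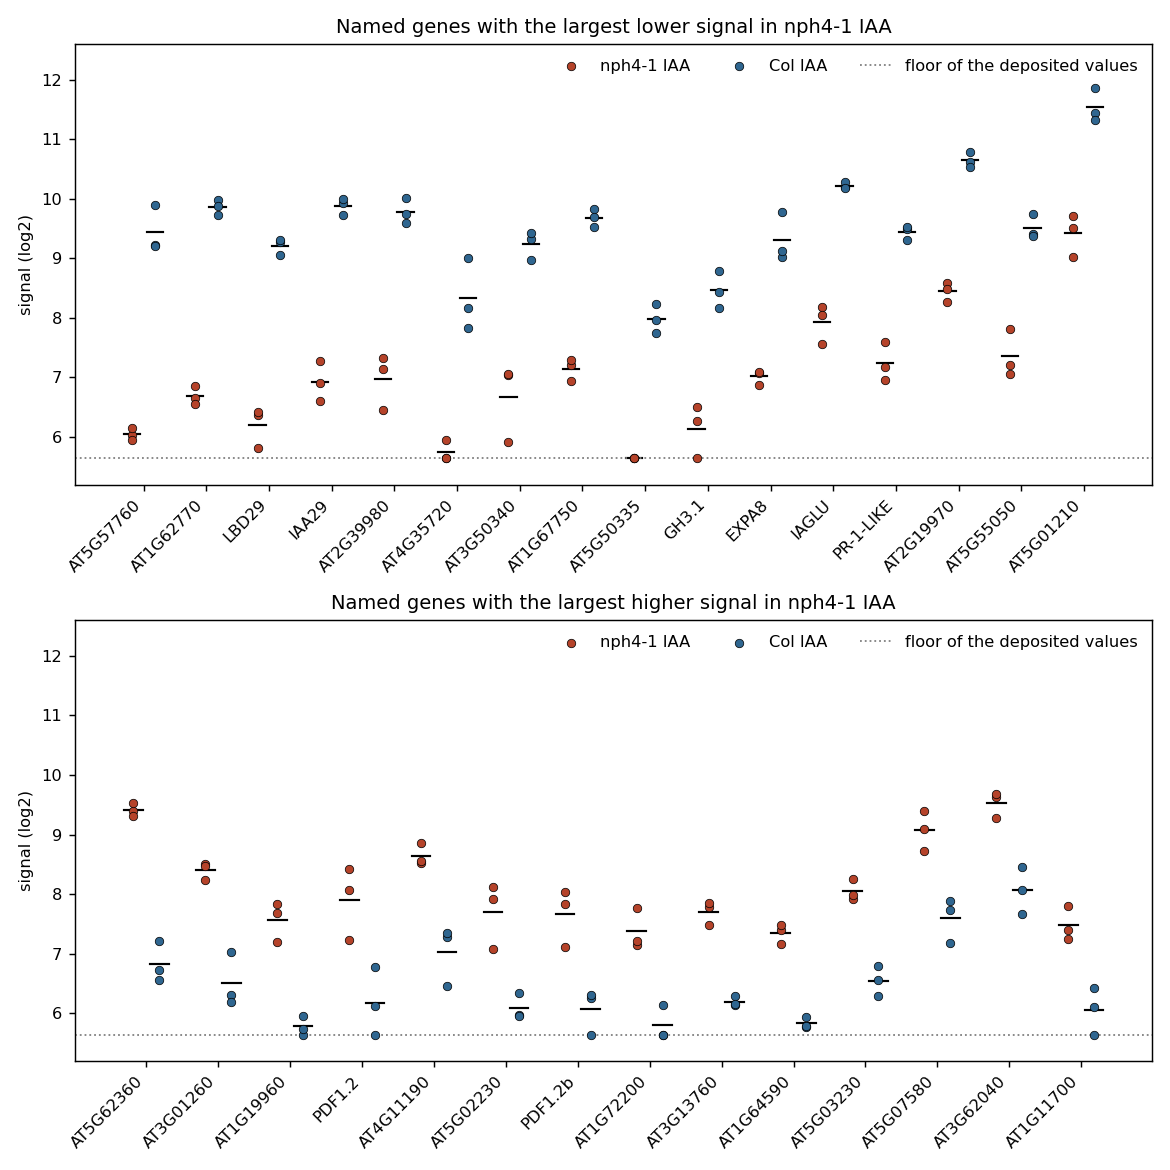
Log2 signal of the 16 named genes with the largest deficit (top) and the 14 with the largest excess (bottom) in nph4-1 IAA, each point 1 array and each bar the mean of 3. The nph4-1 IAA points (left of each pair, red) and the Col IAA points (right, blue) do not overlap for any of these genes, which the naming rule required; AT5G50335 lies on the dotted floor in all 3 nph4-1 IAA arrays.

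In the auxin lists every called gene was lower in nph4-1, where 5.68% of all tested probe sets were lower and 8.35% higher. Of 5 tested Aux/IAA genes 2 were lower and 0 higher, with a list median of -0.23. Besides IAA29, IAA30 had 6.57, 6.25 and 6.94 in nph4-1 IAA and 7.45, 7.19 and 7.10 in Col IAA (-0.66, SE 0.15, adjusted p 0.0041). IAA18 had a difference of -0.23 (adjusted p 0.27), and IAA34 and IAA20 lay at or near the floor in both groups. These counts cover only the family members paired with a probe set and above the floor on some array.

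Of 4 tested GH3 genes 3 were lower in nph4-1 and 0 higher (median -1.3); GH3.17 differed by 0.13 (adjusted p 0.78). GH3.1 had 5.64, 6.27 and 6.51 in nph4-1 IAA, against 8.17, 8.78 and 8.44 in Col IAA, or 20.1% of the Col signal (-2.32, SE 0.17, adjusted p 4e-09). WES1, which encodes a GH3 enzyme that conjugates IAA and salicylic acid, had 8.66, 9.94 and 10.48 in nph4-1 IAA and 12.22, 11.61 and 11.33 in Col IAA (-2.03, SE 0.37, adjusted p 0.0005). The lowest of the mutant values is from nph4-1 IAA 1; without that array the difference was -1.51 (adjusted p 0.0032). GH3.3 was bright in both genotypes, with 12.1, 12.38 and 12.63 in nph4-1 IAA and 13.14, 13.1 and 12.8 in Col IAA, a difference of -0.64 (SE 0.18, adjusted p 0.016). The brightest probe set of each of these 6 arrays lay between 13.28 and 13.49, close to the Col values of GH3.3. The call on GH3.3 was lost when nph4-1 IAA 1 (adjusted p 0.09), Col IAA 1 (0.061) or Col IAA 2 (0.063) was left out, which leaves 2 of 4 GH3 genes lower.

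LBD29, LBD16 and PUCHI, which act early in lateral root formation, were all lower in nph4-1. LBD16, which acts beside LBD29, had 7.59, 7.55 and 7.99 in nph4-1 IAA, against 8.47, 8.62 and 8.22 in Col IAA (-0.73, SE 0.13, adjusted p 0.00048). PUCHI, an AP2/ERF factor of the lateral root primordium, had 6.57, 6.28 and 6.38 in nph4-1 IAA and 7.15, 7.19 and 6.93 in Col IAA (-0.68, SE 0.08, adjusted p 1.7e-06). These 3 also served as markers of lateral root primordia, and their summed linear signal was 321 to 422 in nph4-1 IAA and 951 to 1171 in Col IAA. In the control groups the sum was 176 to 186 in nph4-1 and 182 to 195 in Col. All 3 calls held whichever array was left out.

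Several regulators from lists with fewer than 3 tested members also differed. All but RR16 were chosen after their values were seen. RR16 is also on the list of lateral root and root meristem factors, from which it was named by rule. HAT2, an auxin-inducible HD-ZIP factor, had 9.55, 9.57 and 9.79 in nph4-1 IAA, against 11.10, 11.22 and 11.16 in Col IAA (-1.52, SE 0.11, adjusted p 4.4e-09). WAG2, a kinase that acts on PIN auxin transporters, had 5.79, 6.79 and 6.71 in nph4-1 IAA and 7.42, 7.76 and 7.22 in Col IAA (-1.04, SE 0.20, adjusted p 0.0011). RTE1, which acts with the ethylene receptor ETR1, differed by -0.92 (adjusted p 3.9e-07). The cytokinin response regulator gene RR16 was at the floor on all nph4-1 IAA arrays and at 5.97, 5.92 and 6.02 in Col IAA (-0.33, which is a bound, adjusted p 0.0034). The stress-related AP2/ERF gene tny was higher in nph4-1, at 8.09, 8.01 and 7.99 against 6.64, 7.18 and 6.79 in Col IAA (1.16, SE 0.15, adjusted p 7.2e-06). YUC6, an enzyme of auxin synthesis, was at 5.84, 6.26 and 6.31 in nph4-1 IAA and 5.76, 5.72 and 5.69 in Col IAA (0.41, adjusted p 0.11; 0.037 without nph4-1 IAA 1).

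**Figure D2:**
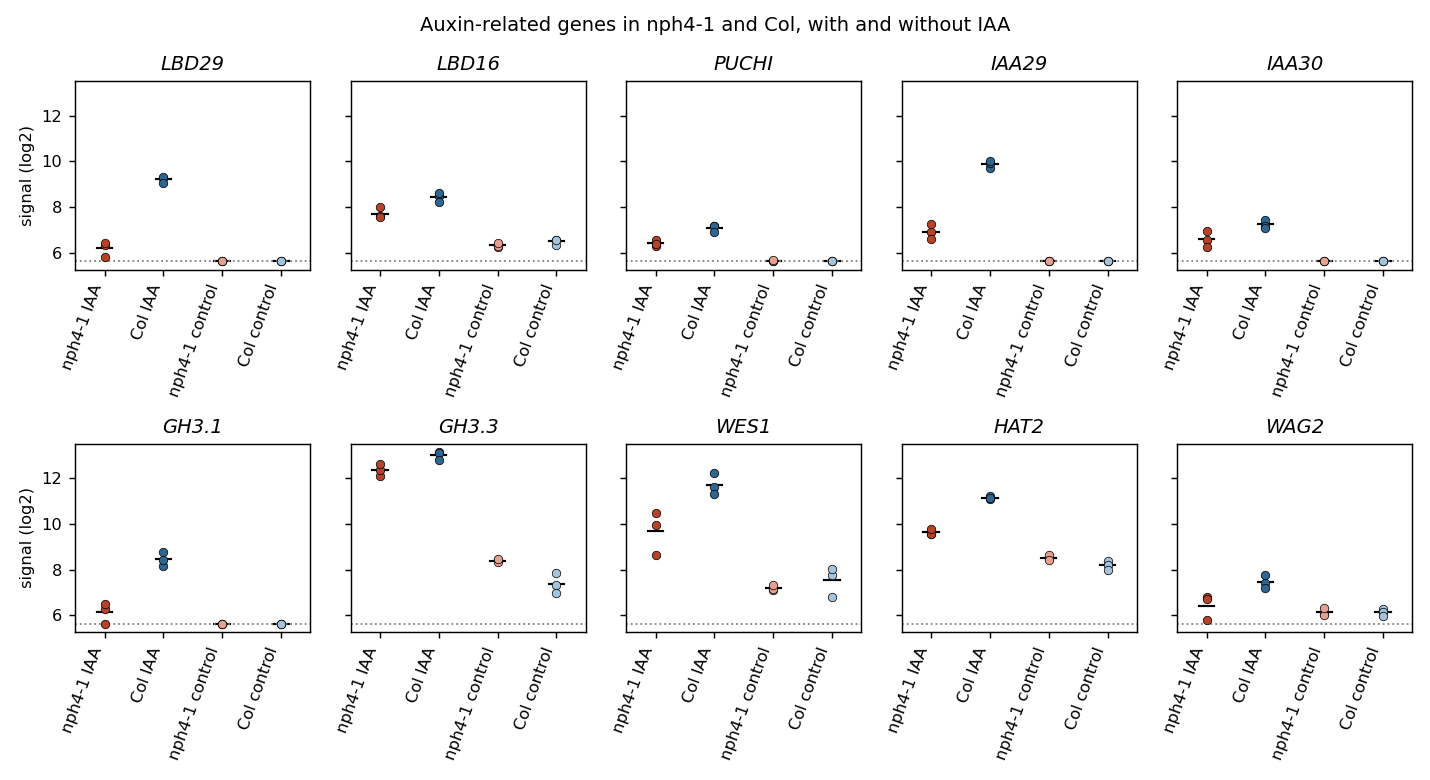
Log2 signal of 10 auxin-related genes in nph4-1 IAA, Col IAA, nph4-1 control and Col control; points are arrays, bars are means of 3, and the dotted line is the floor. LBD29, IAA29 and GH3.1 are at the floor in both control groups and differ by 3.02, 2.96 and 2.32 on the log2 scale between nph4-1 IAA and Col IAA, while GH3.3 is above 12 in both.

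Genes for enzymes that remodel the cell wall differed in either direction, as did all tested probe sets (5.68% lower and 8.35% higher). Of 9 tested XTH genes, which encode enzymes that cut and rejoin xyloglucan, 3 were lower and 1 higher. XTH33 had 6.37, 6.02 and 6.0 in nph4-1 IAA and 7.27, 7.54 and 7.28 in Col IAA (-1.23, SE 0.10, adjusted p 2.7e-08). XTH19 was lower by -0.97 and XTH18 by -0.44, and XTH16 was higher by 0.72. The call on XTH16 was lost without Col IAA 2 or nph4-1 IAA 2, with adjusted p up to 0.11, and that on XTH18 without any of 4 arrays, with adjusted p up to 0.17. Of 13 expansin genes, whose products loosen walls, 4 were lower (EXPA8, EXPA4, EXLA2 and EXPA20) and 2 higher (EXPA15 and EXLB1). EXPA4 had 9.74, 10.52 and 10.70 in nph4-1 IAA, against 10.80, 10.84 and 11.35 in Col IAA (-0.68, SE 0.20, adjusted p 0.029). Without nph4-1 IAA 1, or without Col IAA 3, only 2 expansins were lower. Without Col IAA 3 only EXPA15 was higher.

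Among the cellulose synthase family, 2 of 6 genes were lower and 1 higher. The lower were CSLC5 (-0.86, adjusted p 0.0034) and CSLC04 (-0.74, adjusted p 0.00045), of the group of glucan synthases that build the xyloglucan backbone. CSLA03, a glucomannan synthase gene, was higher, at 7.37, 7.09 and 7.34 in nph4-1 IAA and 6.61, 6.75 and 6.76 in Col IAA (0.56, adjusted p 0.011); without nph4-1 IAA 1, 2 of the 6 were higher. Of 3 genes found by name for pectin methylesterases and their inhibitors, ATPMEPCRB was lower (-0.76, adjusted p 0.00082). Family members without such a name among their symbols and synonyms are not on this list, so it does not describe the whole family. Without nph4-1 IAA 1 another of the 3 listed genes was called higher. Of 8 GH9 glucanase genes only GH9C2 was called, lower by -0.54 (adjusted p 0.018), and its call was lost without nph4-1 IAA 1 or Col IAA 3. Of 18 probe sets for TBL proteins, which acetylate wall polysaccharides, 3 were higher and 0 lower, beside 8.35% higher and 5.68% lower of all tested probe sets. TBL25 led them with 8.86, 8.89 and 8.91 in nph4-1 IAA and 8.17, 8.25 and 8.31 in Col IAA (0.64, SE 0.10, adjusted p 7e-05). Without nph4-1 IAA 1 only 1 TBL probe set was higher, and without Col control 1 or Col control 2 there were 5.

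On the higher side, the 14 named genes with the largest excess in nph4-1 differed by 1.42 to 2.59. AT5G62360 had 9.40, 9.31 and 9.53 in nph4-1 IAA, against 6.72, 7.21 and 6.56 in Col IAA, or 6.01-fold (2.59, SE 0.20, adjusted p 6e-09). AT3G01260 had 8.50, 8.23 and 8.47 in nph4-1 IAA, against 6.30, 6.19 and 7.03 in Col IAA (1.89, SE 0.18, adjusted p 2.1e-07). Both had wide gaps between the groups, which follow in part from the same naming rule. AT1G19960 followed with 1.79, AT4G11190 with 1.62 and AT5G02230 with 1.61. AT1G72200 had 7.77, 7.15 and 7.21 in nph4-1 IAA, and in Col IAA it was at the floor on 2 arrays and at 6.14 on the third (1.57, SE 0.18, adjusted p 2.7e-06). The others were AT3G13760 (1.52), AT1G64590 (1.52), AT5G03230 (1.51), AT5G07580 (1.47), AT3G62040 (1.46) and AT1G11700 (1.42).

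The best characterised of the 14 are PDF1.2 and PDF1.2b, plant defensin genes that respond to jasmonate and ethylene. PDF1.2 had 8.42, 8.07 and 7.23 in nph4-1 IAA, against 6.12, 6.77 and 5.64 in Col IAA (1.73, SE 0.47, adjusted p 0.014). The call was lost without nph4-1 IAA 1 (adjusted p 0.067) or without Col IAA 3 (up to 0.086). PDF1.2b had 8.04, 7.84 and 7.11 in nph4-1 IAA and 6.25, 6.31 and 5.64 in Col IAA (1.59, adjusted p 0.0031); its probe set is of a kind that can share signal with near-identical genes, so the pair may not be independent. The 13 others of the 14 kept their call whichever array was left out. Of 10 tested genes of the jasmonate and defence list 3 were higher, PDF1.2, PDF1.2b and the defensin-like LCR68 (0.33), and PR-1-LIKE was lower. Over all tested probe sets 8.35% were higher and 5.68% lower. Without Col IAA 3 only 1 of the 10 was higher.

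Among genes for the modification and transport of small molecules, most called members were higher in nph4-1. So were 1316 of the 2211 probe sets called in all, with 8.35% of tested probe sets higher and 5.68% lower. Of 9 CYP71 genes, which encode cytochromes P450, 7 were higher and 0 lower (median 0.47). CYP71B37 had 6.51, 6.39 and 6.83 in nph4-1 IAA and was at the floor on all 3 Col IAA arrays, so it was at least 1.91-fold higher (adjusted p 0.00011). This count depended on single arrays: without nph4-1 IAA 1, or without Col IAA 3, 3 of 9 were higher, and without nph4-1 IAA 3, 4 of 9. CYP71B28, CYP71B34 and CYP71B37 were the 3 that were still higher without nph4-1 IAA 1. Of 10 glutathione transferase genes 5 were higher and 1 lower, with 3 higher without nph4-1 IAA 1 or Col IAA 3; the lower one, GSTU16, lost its call without any of 4 arrays. GSTU27 had 10.06, 9.58 and 9.69 in nph4-1 IAA and 8.94, 8.88 and 8.95 in Col IAA (0.85, SE 0.11, adjusted p 9.4e-06).

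Of 34 UGT glycosyltransferase genes, 9 were higher and 1 lower, beside 8.35% higher and 5.68% lower of all tested probe sets. GT72B1 had 8.20, 8.68 and 8.92 in nph4-1 IAA and 7.13, 7.59 and 7.21 in Col IAA (1.29, SE 0.17, adjusted p 1.6e-05), and UGT76B1 was higher by 1.05. UGT74B1, which acts in glucosinolate synthesis, was higher by 0.83, and UGT78D1 and UGT78D2, which glycosylate flavonols, by 0.56 and 0.43. These last calls were lost without Col IAA 1, Col IAA 2 or nph4-1 IAA 1, and that on UGT78D1 also without nph4-1 IAA 3. UGT76D1 was the lower one of the list (-0.95, adjusted p 2.2e-07). The list was drawn by gene name and does not hold IAGLU, the glucosyltransferase gene described above, which was lower by -2.29. Leaving out Col control 2, Col control 3, Col IAA 2, nph4-1 IAA 3 or arf19-1 control 2 brought the lower count to 2.

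Of 8 SWEET sugar transporter genes 3 were higher and 0 lower, where 8.35% of all tested probe sets were higher and 5.68% lower. In the small lists of this paragraph, counts of 1 or 2 cannot be told from these shares. SWEET17, a vacuolar fructose transporter, had 8.88, 8.67 and 8.88 in nph4-1 IAA, against 7.75, 8.08 and 7.85 in Col IAA (0.92, SE 0.10, adjusted p 5.9e-07). SWEET16, also of the vacuole, was higher by 0.67, and SWEET11, which exports sucrose for phloem loading, by 0.64; SWEET11 lost its call without any of Col IAA 2, Col IAA 3, nph4-1 IAA 2 and nph4-1 IAA 3. Of 8 nitrate and peptide transporter genes, the glucosinolate transporter genes GTR1 (0.93) and GTR2 (0.39) were higher, and AT1G59740 was lower (-0.75, adjusted p 0.023). GTR2 lost its call without Col IAA 3 or nph4-1 IAA 3, and AT1G59740 without Col IAA 1, Col IAA 3 or nph4-1 IAA 1. BGLU16 (0.58) and BGLU15 (0.44) were the 2 higher of 10 beta-glucosidase genes. Of 7 tetraspanin genes 3 were higher, TET8 by 0.54, TET2 by 0.43 and TET3 by 0.31, and without Col IAA 2 only TET8 was; TET3 also lost its call without Col IAA 3 or nph4-1 IAA 1. The single WRKY gene called of 6, ZAP1 (0.39), lost its call without any of Col IAA 2, Col IAA 3, nph4-1 IAA 1 and nph4-1 IAA 3. Of 4 class III peroxidase genes AT2G41480 was higher (1.06) and AT5G64120 lower (-0.72).

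**Figure D3:**
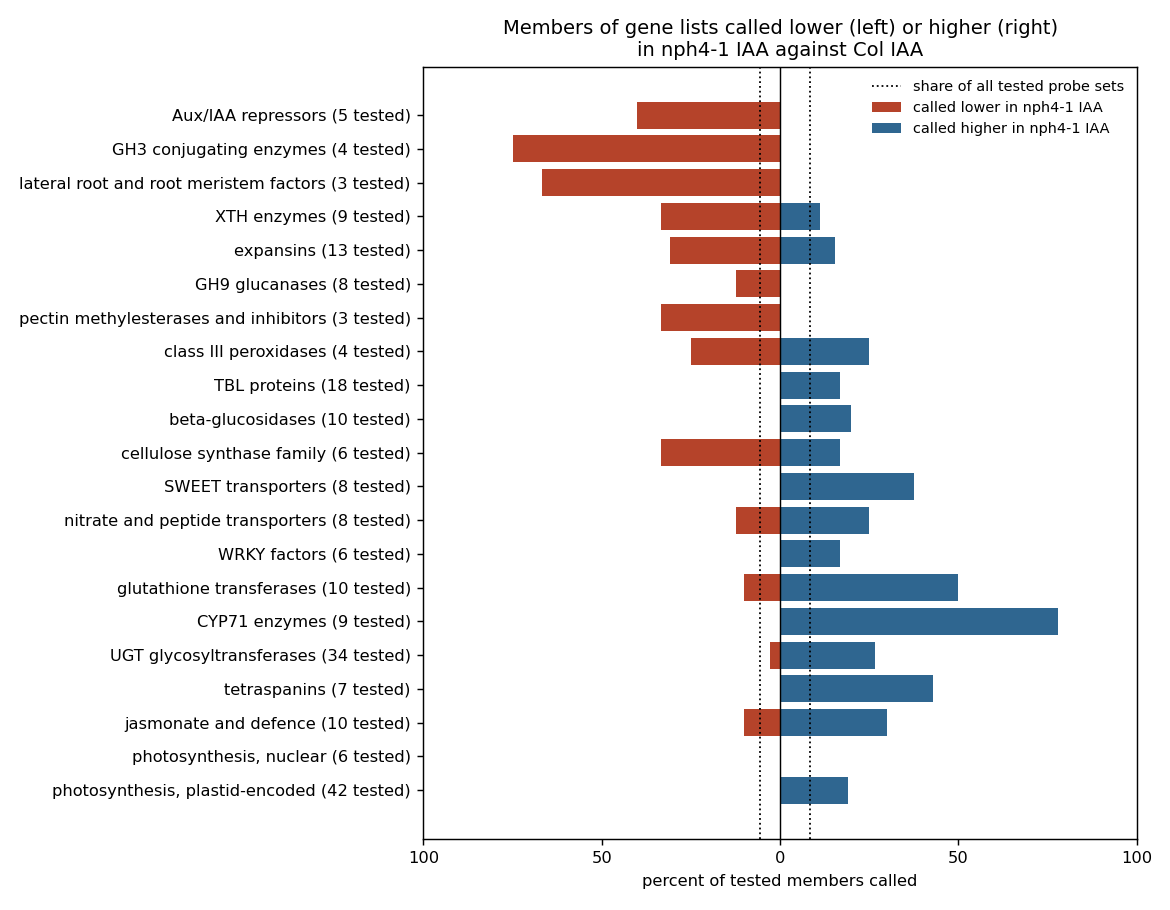
Percent of tested members called lower (left, red) or higher (right, blue), for the gene lists with at least 3 tested members other than cell type markers, in nph4-1 IAA against Col IAA; dotted lines mark 5.68% lower and 8.35% higher, the shares among all tested probe sets. Of the lists drawn, the GH3 list has the highest share lower, 3 of 4 (2 of 4 without nph4-1 IAA 1), and the CYP71 list the highest share higher, 7 of 9 (3 of 9 without nph4-1 IAA 1 or without Col IAA 3).

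Most plastid-encoded photosynthesis genes had small differences above 0 that did not pass the test. Of 42 tested genes 8 were called higher with IAA and 0 lower, beside 8.35% higher and 5.68% lower of all tested probe sets. The median difference was 0.43, with all 42 above 0 (range 0.06 to 1.24). Their summed linear signal was 82385 to 100844 in nph4-1 IAA and 61701 to 74548 in Col IAA. In the control groups the sum was 75064 to 109655 in nph4-1 and 58718 to 82373 in Col. There the median difference was 0.46 and 2 of 42 were called higher, beside 1.21% of all tested probe sets. The photosystem II gene psbH had 10.72, 11.48 and 11.26 in nph4-1 IAA and 10.39, 10.67 and 9.98 in Col IAA (0.80, SE 0.23, adjusted p 0.023); its call was lost without Col IAA 3, nph4-1 IAA 2 or nph4-1 IAA 3. The count of 8 was 5 without Col IAA 1, 2 without Col IAA 3 and 3 without nph4-1 IAA 2. Between nph4-1 arf19-1 IAA and arf19-1 IAA the median difference of the same genes was -0.015, with 0 of 42 called. In that comparison 8.21% of all tested probe sets were higher and 7.20% lower. Of the nuclear photosynthesis genes 0 of 6 were called between nph4-1 IAA and Col IAA, and their median was -0.01. The highest plastid sum lay on array 2 in both IAA groups, and its part in these values was not tested.

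**Figure D4:**
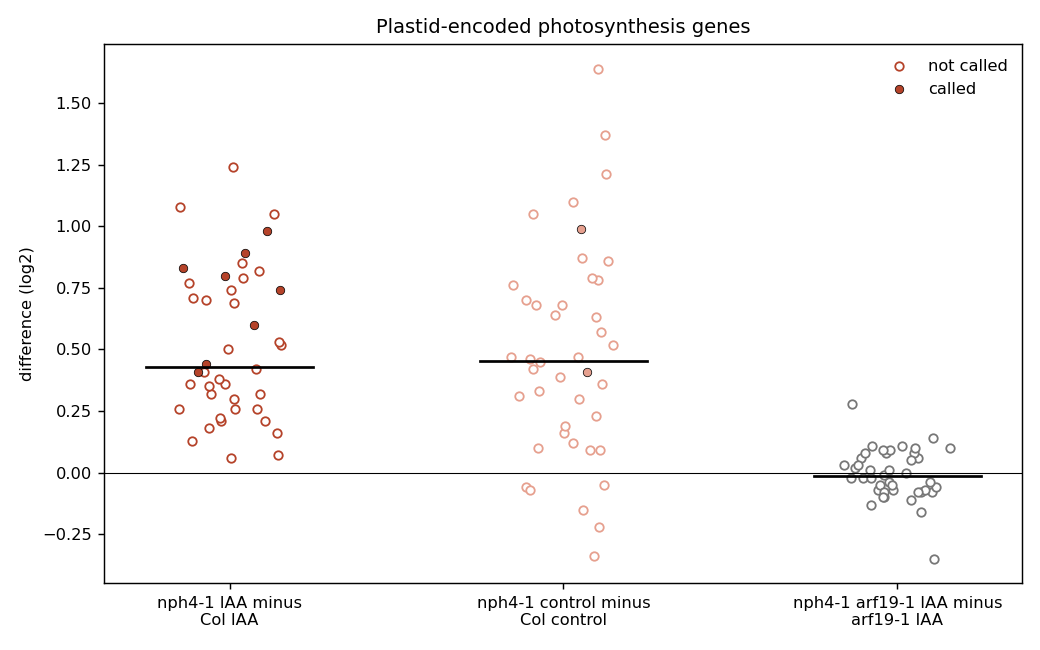
Log2 difference of each of 42 plastid-encoded photosynthesis genes in 3 comparisons; points are genes, filled where called, and bars are medians. The medians are 0.43 with IAA and 0.46 in the control groups for nph4-1 minus Col, and -0.015 for nph4-1 arf19-1 IAA minus arf19-1 IAA.

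Fewer probe sets differed between the genotypes without IAA. In nph4-1 control against Col control 169 (1.07%) were lower and 190 (1.21%) higher. These counts depended on single arrays: their sum of 359 was 211, 1352 and 169 without Col control 1, 2 and 3, 176, 190 and 111 without nph4-1 control 1, 2 and 3, and 614 without nph4-1 IAA 1. Of the 895 probe sets lower in nph4-1 with IAA, 101 (11.3%) were also lower without it, and of the 1316 higher, 138 (10.5%) were also higher. Without Col control 3 these shares were 5.43% and 4.93%, and without nph4-1 IAA 1 they were 127 of 794 and 206 of 1084. The control comparison itself called 76 lower and 93 higher without Col control 3. Without nph4-1 IAA 1 it called 245 lower and 369 higher, against 169 and 190 with all arrays. The median difference without IAA was -0.13 for the 895 and 0.19 for the 1316, against 0.00015 over all tested probe sets.

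Of the 16 genes with the largest deficit, 6 were also called lower without IAA, beside 1.07% of all tested probe sets. Of the 14 with the largest excess, 6 were also called higher, beside 1.21%. They include AT5G57760 (-1.45, adjusted p 0.0046), AT1G62770 (-0.87, adjusted p 0.00025) and AT5G62360 (1.07, adjusted p 0.0059). EXPA8 and PR-1-LIKE were also among the genes that already differed without IAA. EXPA8 had 6.56, 6.41 and 6.18 in nph4-1 control, against 8.62, 7.68 and 8.96 in Col control (-2.04, SE 0.27, adjusted p 0.00038). PR-1-LIKE had 6.83, 6.93 and 6.63 in nph4-1 control, against 8.06, 8.29 and 8.29 in Col control (-1.42, SE 0.16, adjusted p 9e-05). Their differences with and without IAA did not differ by the test below (adjusted p 0.83 for EXPA8 and 0.078 for PR-1-LIKE). The defensin gene PDF1.2 had 7.81, 7.44 and 7.32 in nph4-1 control and was at the floor on all 3 Col control arrays, a difference of at least 1.88 (adjusted p 0.035). GH3.3 was higher in nph4-1 without IAA, with 8.42, 8.33 and 8.46 in nph4-1 control and 7.84, 7.34 and 6.97 in Col control (1.02, SE 0.18, adjusted p 0.0041).

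The difference between the genotype effects, which is nph4-1 minus Col with IAA less nph4-1 minus Col without it, was tested in the same model. It was below 0 for 263 probe sets (1.67%) and above 0 for 183 (1.16%). With a filter on dim probe sets the counts were 105 below 0 and 114 above. Of the 16 genes with the largest deficit, 14 passed this test, and the other 2 were EXPA8 and PR-1-LIKE. These genes, like the 14 with the largest excess, were chosen by the difference with IAA. That difference is part of the contrast, so the counts that passed follow in part from the choice. LBD29 and IAA29, both at the floor in all control arrays, had the largest values below 0 among the named genes, -3.02 (SE 0.16, adjusted p 4.8e-11) and -2.96 (SE 0.20, adjusted p 3.8e-09), and a difference hidden under the floor cannot be seen. AT3G50340, with signal in the controls, had -2.44 (SE 0.29, adjusted p 1.5e-05). GH3.3 had -1.66 (SE 0.25, adjusted p 0.00025), and HAT2 -1.84 (SE 0.16, adjusted p 1.6e-07). Of the 14 genes with the largest excess, 8 passed, led by AT1G72200 (1.78, SE 0.26, adjusted p 0.00018), AT3G01260 (1.56) and AT5G62360 (1.52). PDF1.2 had -0.15 (adjusted p 0.96).

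The same contrast is the gap between the responses to IAA of the 2 genotypes, and the responses use the arrays already described. Both at the floor in the controls, IAA29 had a response of at least 1.28 in nph4-1 and at least 4.24 in Col, and LBD29 of at least 0.55 in nph4-1 and at least 3.56 in Col. For GH3.3 the response was 3.97 in nph4-1 and 5.63 in Col, and for HAT2 it was 1.11 in nph4-1 and 2.95 in Col; all 4 genes were called higher with IAA in each genotype. AT5G57760 had a response of 0.39 (adjusted p 0.57) in nph4-1 and 2.33 in Col. AT5G50335 was at the floor on all 6 nph4-1 arrays. Among the genes with excess, AT1G72200 had a response of -0.30 (adjusted p 0.53) in nph4-1 and -2.08 in Col, and AT3G01260 -0.40 (adjusted p 0.41) in nph4-1 and -1.95 in Col.

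The same allele was also measured in plants that all carry arf19-1. Between nph4-1 arf19-1 IAA and arf19-1 IAA, which share no array with the comparison above, 7.20% of tested probe sets were lower in the double mutant and 8.21% higher. The signals compared are separate, but the calls of all comparisons use the same pooled spread of each probe set. A probe set with a small spread is thus more easily called in each, and the overlaps of calls are not fully independent. Of the 895 probe sets lower in nph4-1 IAA, 523 (58.4%) were also lower there and 2 were higher. Of the 1316 higher ones, 663 (50.4%) were also higher there and 15 lower. The medians there were -0.46 for the 895 and 0.37 for the 1316, against 0.0 over all tested probe sets. Counted from the other side, the 523 are 46.1% of the probe sets lower in the double mutant and the 663 are 51.3% of those higher. In the fit without nph4-1 IAA 1, which changes the calls of both comparisons, the shares were 65.5% and 53.0%. That fit called 1266 probe sets lower and 1445 higher in the double mutant, against 1134 and 1293 with all arrays.

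All 16 genes with the largest deficit were lower in the double mutant too, by -3.63 to -1.31. LBD29 was at the floor on all 3 nph4-1 arf19-1 IAA arrays and at 9.26, 9.21 and 9.36 in arf19-1 IAA, at least 12.4-fold lower. IAA29 was likewise at the floor in nph4-1 arf19-1 IAA and at 8.93, 9.22 and 9.58 in arf19-1 IAA, at least 12.1-fold lower. WES1 had 7.74, 8.4 and 8.53 in nph4-1 arf19-1 IAA and 11.99, 11.88 and 12.12 in arf19-1 IAA, a difference of -3.77 beside -2.03 for nph4-1 against Col. Of the 14 genes with the largest excess, 13 were higher in the double mutant; AT1G64590 had 0.35 (adjusted p 0.20). The factor gene tny, higher by 1.16 in nph4-1 IAA, had 0.11 here (adjusted p 0.77), and TET8 had 0.02 (adjusted p 0.99) beside 0.54. GTR2 was higher in nph4-1 (0.39) and lower in the double mutant (-0.38, adjusted p 0.012). EXPA7 and EXPA18, not called in nph4-1 IAA, were lower in the double mutant, EXPA7 with 6.43, 6.56 and 6.68 in nph4-1 arf19-1 IAA and 8.08, 7.99 and 7.90 in arf19-1 IAA (-1.43, adjusted p 1.1e-05). Whether the nph4-1 effect itself differs between the backgrounds was not tested.

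**Figure D5:**
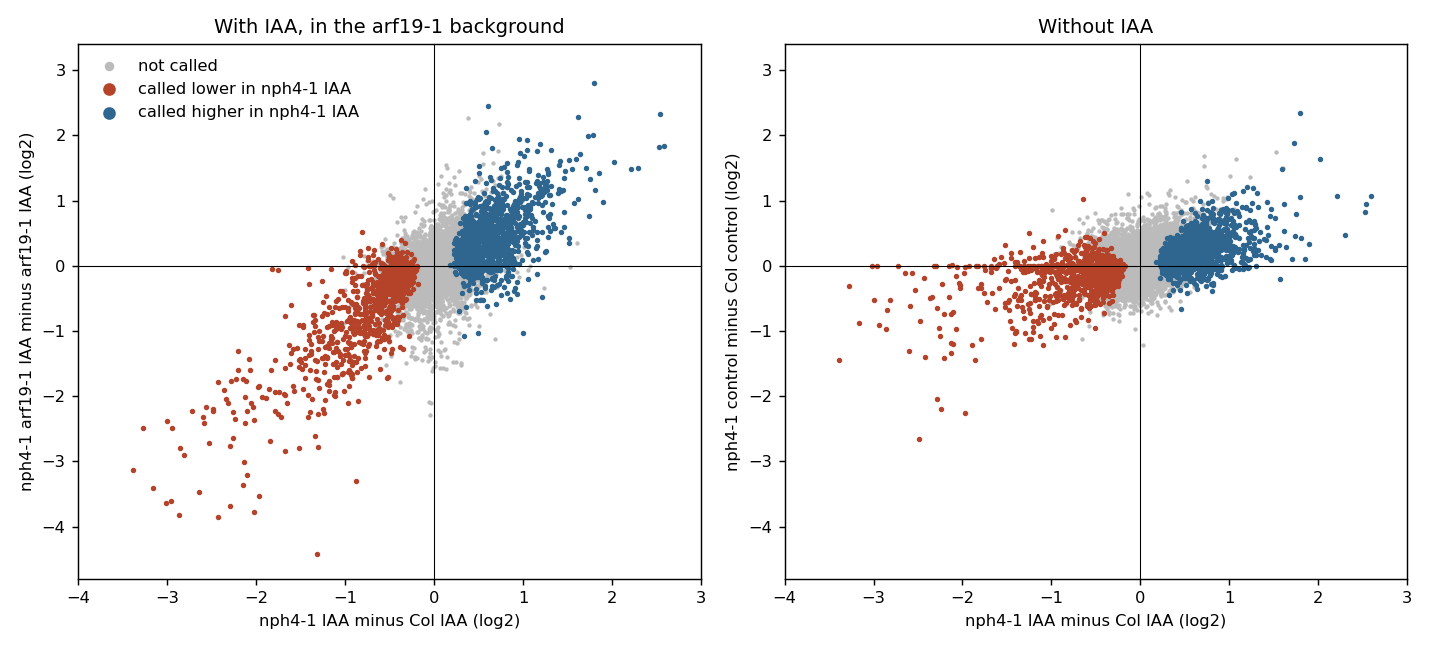
Log2 difference of nph4-1 IAA minus Col IAA (horizontal) for all 15757 tested probe sets against the difference of nph4-1 arf19-1 IAA minus arf19-1 IAA (left) and of nph4-1 control minus Col control (right), none of which share arrays with the horizontal axis. Of the 895 probe sets called lower (red) 523 were also lower on the left and 101 on the right, and of the 1316 called higher (blue) 663 and 138 were also higher.

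The response to IAA of these probe sets was read on arf19-1 arrays, which carry wild-type ARF7 and are not part of the comparison of nph4-1 IAA with Col IAA. The arf19-1 IAA arrays are also the reference of the double mutant comparison above, so these readings are not independent of each other. For LBD29 and IAA29, at the floor in nph4-1 arf19-1 IAA and in arf19-1 control, both have the same size, 3.63 and 3.60. In arf19-1 IAA against arf19-1 control 4.89% of tested probe sets were higher with IAA and 5.22% lower. Of the 895 lower in nph4-1 IAA, 462 (51.6%) rose with IAA in arf19-1 and 3 fell, with a median response of 0.40. Of the 1316 higher in nph4-1 IAA, 487 (37.0%) fell with IAA in arf19-1 and 5 rose, with a median response of -0.28. The 462 are 60.0% of the probe sets that rose in arf19-1 and the 487 are 59.2% of those that fell. All 16 genes with the largest deficit rose with IAA in arf19-1, by 0.81 for AT5G55050 to 3.63 for LBD29, a lower bound since LBD29 was at the floor in arf19-1 control. Of the 14 with the largest excess, 12 fell, AT1G72200 the most (-2.00); the exceptions were PDF1.2 (-0.58, adjusted p 0.64) and PDF1.2b (-0.29, adjusted p 0.83). In the fit without nph4-1 IAA 1, which changes both sets of calls, the shares were 58.1% and 41.3%. That fit called 848 probe sets higher with IAA and 912 lower in arf19-1, against 770 and 822 with all arrays.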

How the data were processed

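Total RNA of 24 samples was measured on one array design, in 8 groups of 3. The deposited table holds log2 signals with a floor at 50 in linear units (5.64 in log2), as its values show; how the authors computed and scaled them is not given in the sources used here. The values were used without further normalization. Probe sets were named from the platform annotation where it pairs them with 1 gene (13513, of which 13436 were found in RefSeq's table of TAIR10.1); no coordinates or sequences are given, and a planned search of promoters for motifs was not done.

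Control probe sets and those at the floor on every array were left out, which left 15757. A linear model of the 8 group means was fitted with limma 3.58.1 in R 4.3.3 (moderated test with trend and robust variance, two-sided, 16 residual degrees of freedom). Benjamini-Hochberg adjustment was applied to each comparison on its own, with calls made at 0.05. The script was tested on simulated data. Probe sets where a group lies at the floor have only a bound, and the number of arrays limits the precision. The comparison, members and gene lists were chosen with earlier results of these data known.

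Named genes are the 16 largest lower and 14 largest higher called ones with 1 gene and no overlap between groups, and from each list with 3 or more tested members up to 4 called ones, or the largest where none was called. Other genes named, among them HAT2, WAG2, RTE1, YUC6, tny, EXPA7 and EXPA18, uncalled list members and the fifth or later called member of a list, were chosen after their values were seen. The lists for SAUR proteins, gibberellin and brassinosteroid, arabinogalactan proteins, aquaporins, cell cycle and phloem had no tested member; 0 of 2 stomatal and 0 of 2 xylem markers were called, and without nph4-1 IAA 1, 1 of the stomatal markers was higher. Alternatives were other normalizations, filters, variance settings, thresholds, a replicate block, a fit of the compared arrays alone and the omission of each array. Some were added after seeing the data. These were the overlaps with other comparisons without nph4-1 IAA 1 or Col control 3, and the compared arrays alone without nph4-1 IAA 1.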

Additional observations from a re-analysis of the deposited data

Results flagged for a closer look

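The genotype effect with IAA minus that without it differed from 0 for 446 probe sets by the test of the difference itself (limma, adjusted p below 0.05). The values below are on the log2 scale, for named genes that passed this test.

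Among auxin-related genes the values were -3.02 for LBD29, -2.96 for IAA29, -2.32 for GH3.1, -1.84 for HAT2, -1.66 for GH3.3, -1.64 for IAGLU and -0.69 for PUCHI. LBD29, IAA29, GH3.1 and the glycosyltransferase gene UGT76D1 (-0.95) were at the floor on all control arrays of both genotypes, so their values equal the difference with IAA, and PUCHI was at the floor on 3 of 3 Col control and 2 of 3 nph4-1 control arrays. The ethylene-related gene RTE1 had -0.84. Of the wall genes, CSLC5 had -1.06 and XTH33 -0.80.

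Among loci with no role given here, AT3G50340 had -2.44, AT2G39980 -2.30, AT1G62770 -2.29, AT1G67750 -2.16, AT4G35720 -1.98, AT5G57760 -1.94 and AT5G50335 -1.86. The floor limits some of these: AT5G50335 was at it on all 6 nph4-1 arrays, so its value is the response in Col alone and a change in nph4-1 cannot be seen, AT5G57760 on 2 of 3 nph4-1 control arrays, and AT4G35720 on 2 of 3 nph4-1 IAA arrays and 1 Col control array. The remaining ones were AT5G55050 with -1.66, AT2G19970 with -1.46 and AT5G01210 with -1.38.

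Values above 0 were found for AT1G72200 (1.78), AT3G01260 (1.56), AT5G62360 (1.52), AT5G07580 (1.37), AT3G13760 (1.27), AT5G03230 (1.24), AT3G62040 (1.16) and AT5G02230 (1.08); AT1G72200 was at the floor on 2 of 3 Col IAA arrays. Of the genes with a known role, the factor gene tny had 1.14, the glutathione transferase gene GSTU27 0.80, CSLA03 0.79, TBL25 0.76, the transporter gene SWEET17 0.67 and the tetraspanin gene TET8 0.48. No array was tested as an outlier of its group, since groups of 3 are too small.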

How the results depend on the processing

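No named gene that was called changed direction; uncalled ones near 0 could, such as EIN3 (-0.12, and 0.14 without nph4-1 IAA 1) and PHV (0.07, and -0.05 without it). Of the 2211 probe sets called in nph4-1 IAA against Col IAA, a threshold of 0.01 left 1305 and a minimum of 2-fold left 344 (207 lower, 137 higher, against 895 and 1316). A fit of the compared arrays alone called 1030 (418 lower, 612 higher), or 1341 without nph4-1 IAA 1, and 23 in nph4-1 control against Col control; for the difference between these effects it called 214 (153 below 0, 61 above), and a filter on dim probe sets 219 (105 below, 114 above), against 263 below and 183 above, so the balance turned under that filter. It also turned in nph4-1 control against Col control under several omissions, such as that of Col control 1 (118 lower and 93 higher, against 169 and 190), and likewise in the response of arf19-1, such as without arf19-1 control 2 (635 lower and 646 higher, against 822 and 770). With 1 array left out, the counts ranged over 1581 to 2477 with IAA, 111 to 1352 without it, 327 to 493 for the difference, 1877 to 2711 in nph4-1 arf19-1 IAA against arf19-1 IAA, and 1203 to 1760 for the response to IAA in arf19-1. By the rule that every pair must correlate above 0.1, replicate numbers paired the arrays in none of the comparisons checked: deviations of same-numbered arrays correlated at -0.14, -0.12 and -0.093 for nph4-1 IAA and Col IAA, 0.0055, -0.079 and 0.046 for the controls, 0.16, 0.06 and 0.36 for nph4-1 arf19-1 IAA and arf19-1 IAA, and 0.0048, 0.29 and 0.15 for arf19-1 IAA and arf19-1 control. A replicate block gave 2438, 529, 514, 2635 and 1697 calls in these 5 comparisons and changed no named gene's call. Of the 87 called among 109 named probe sets, 25 lost their call in the fit of the compared arrays alone, 19 without Col IAA 3 and 15 without nph4-1 IAA 1. The cause was not tested. Signals at the floor limit what can be seen of genes silent in a group.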

Other observations

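Some of the largest differences belong to probe sets with no gene name here, chosen after their values were seen. Probe set 250509_at was at the floor on all 3 nph4-1 IAA arrays and at 8.19, 9.10 and 9.46 in Col IAA, a log2 difference of -3.27 that is a bound, and 249065_at differed by -3.0. In the other direction, 248978_at had 8.36, 7.75 and 8.41 in nph4-1 IAA and was at the floor on all 3 Col IAA arrays, and 256012_at differed by 2.54.

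Some genes that stand near each other in the gene order of TAIR10.1 were both lower in nph4-1 IAA than in Col IAA; these pairs were chosen after their values were seen. AT2G19970 differed by -2.20 and PR-1-LIKE, 2 places away, by -2.21. AT3G50340 and its neighbour AT3G50350 differed by -2.56 and -1.11, and AT4G37290 and its neighbour AT4G37295 by -1.16 and -1.98. Between nph4-1 arf19-1 IAA and arf19-1 IAA, AT4G37290 differed by -0.06 and AT4G37295 by -1.86.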
